A study of Mus musculus with 12 samples.

Results

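The ciliary transition zone and basal body genes were followed here as 33 named genes, matched by mouse symbol and Entrez ID among the 27179 genes of a table of polyadenylated RNA from mIMCD3 cells, a mouse kidney line of inner medullary collecting duct origin. All 33 were found, and all 33 passed the filter on low values (at least 10 normalized counts in at least 3 of the 12 libraries), which kept 13939 genes. After 48 h of growth in 10% fetal calf serum the confluent cells were starved of serum for 24 h, and each of the 4 groups had 3 libraries. The group labelled Actr3 KO-1 CB (KO-1 CB) was the Actr3 knockout line with 0.5 µM ciliobrevin D, an inhibitor of dynein motors, in the starvation medium. The group labelled Actr3-Ift88 dKO (dKO) was a line labelled as knocked out for both Actr3 and Ift88. The group labelled Actr3 KO-1 (KO-1) was the Actr3 knockout line without ciliobrevin D, where the protocol adds solvent, and the control was a wild type mIMCD3 line. The 3 edited groups thus shared the Actr3 knockout. Actr3 encodes a core subunit of the Arp2/3 complex, which starts branched actin networks, and Ift88 codes for a subunit of the intraflagellar transport trains that build the cilium. The titles give 1 line per genotype, so effects of the line and of the genotype cannot be told apart. Whether replicate libraries stem from different cultures is not in the labels, and the p-values therefore cover only the spread among these libraries, which may be technical.

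A primary cilium grows from a basal body, which is a mother centriole docked at the plasma membrane by its distal appendages. Above the appendages lies the transition zone, where Y-shaped links join the microtubules to the membrane and form a gate that sorts the proteins entering and leaving the cilium. The gate is built from an MKS and tectonic module of membrane and B9-domain proteins and an NPHP module, with CEP290 and RPGRIP1L among its anchors. Centriolar satellites are granules around the centrosome that carry some of these proteins. Inherited loss of transition zone proteins causes ciliopathies such as Meckel syndrome, Joubert syndrome and nephronophthisis, and the last of these affects the kidney medulla, where the collecting ducts lie.

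The libraries held 28902562 to 38077987 recovered reads. The edited gene Actr3 averaged 1573 normalized counts in KO-1 CB, 871 in dKO, 1218 in KO-1 and 8336 in control. Ift88 averaged 438, 604, 617 and 457 in the same order, and counts over a whole gene do not check a short edit. Of 16 collecting duct markers, 15 passed the filter on low values, among them Krt8, Cdh16, Epcam, Pax2 and Pax8, while the water channel gene Aqp2 was at or near 0 in every group. Group means were low for Aqp3 (4.03 to 13.2), Gata3 (18.3 to 70.5) and Scnn1a (47.2 to 70.7). The 16 summed to 97811 to 101302 in KO-1 CB, 92229 to 100114 in dKO, 98739 to 106308 in KO-1 and 129732 to 138605 in control. Single markers went both ways between control and KO-1. Krt8 averaged 25272 in control and 9727 in KO-1, and Krt19 14835 and 4343. Cdh16 averaged 18297 in control and 35475 in KO-1, and Tfcp2l1 2190 and 3248. Markers of endothelium summed to 4.14 to 25.9 over all libraries. The 3 podocyte markers summed to 2458 to 2813 in KO-1 CB, 3021 to 3204 in dKO, 3681 to 4201 in KO-1 and 4071 to 4651 in control, and the 6 leukocyte markers to 314 to 364, 136 to 156, 158 to 169 and 180 to 212 in the same order. The name of 1 control column equals none of the control titles. It carries a replicate number, and a line number other than that of the control titles. This library was used in the control group, but its replicate number was not used. It is therefore called the control library with no replicate number here. Its name could also mean a different control line, which the labels do not settle, so results against control were also computed without it.

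Levels of different genes were compared per kilobase of annotated exon, as normalized counts per kilobase averaged over each group. In control cells the highest level was that of Tctn2, a tectonic of the transition zone, at 909.9. It was followed by Pcm1, the scaffold protein of centriolar satellites, at 809, and B9d1, a B9-domain protein, at 732. The lowest were Cep97, a cap protein of the centriole's distal end, at 72.5, and Ahi1, which encodes jouberin, at 81.3, with Mks1 between them. In the edited groups, Pcm1 was highest in KO-1 CB (912) and in KO-1 (989), and B9d1 was highest in dKO (749.8). No member was near absence: the lowest normalized count of any member in any library was 79.4 and the highest was 7076.

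Replicates were close, with a coefficient of variation within groups of 0.375% to 19.6% and a median of 4.59%. The highest group mean of a member was 1.13 to 3.16 times its lowest, with a median of 1.56. Over the 11733 tested genes with a mean of at least 50 the median of that ratio was 1.59. Of the 33, 4 reached a ratio of 2 (Iqcb1, Cep97, Poc1a and Cby1), and 22.4% of those 11733 genes did. KO-1 CB held the lowest mean of 19 members, dKO of 10, KO-1 of 3 and control of 1. KO-1 CB held the highest mean of 2 members (Iqcb1 and Nphp4), dKO of 10, KO-1 of 15 and control of 6. The same counts were not made over all tested genes, so these have no background beside them. In bulk RNA, fewer cells of a type and less RNA per cell cannot be told apart.

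**Figure D1:**
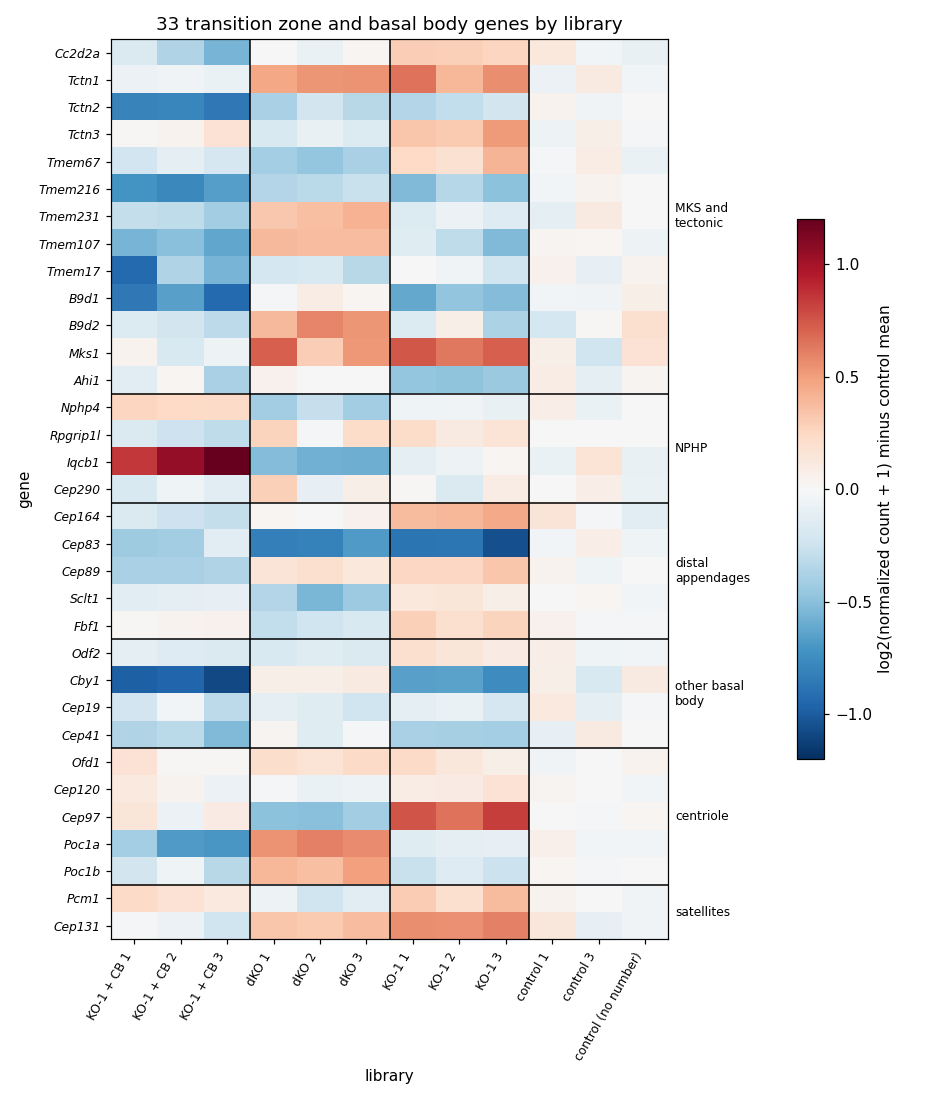
Each row is 1 of the 33 genes, grouped by role, and each column 1 library; colour gives log2(normalized count + 1) minus the mean of the 3 control libraries. Replicates of a group share their colours, Iqcb1 stands out as high in the 3 KO-1 CB libraries, and Cep97 is high in KO-1 and low in dKO.

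RFX transcription factors bind a sequence known as the X-box in the promoters of many cilia genes, and promoters of the members were therefore searched for it. RefSeq promoter windows (GRCm38.p6, 250 bases before to 50 after the start site) were in the table for 30 of the 33 genes; Tmem67, Cep120 and Pcm1 had none. The X-box was searched on both strands by its usual consensus of 2 arms at most 3 bases apart. It was found for 6 of the 30 genes (20%), against 1.75% of the 27025 genes with a window. The arm GTTGCC alone, searched on both strands and overlapping the X-box where both occur, was found for 14 of the 30 (46.7%), against 14.1% of all genes. The other 24 genes with a window had no match to the X-box, though some of them held the arm. The 6 matches are shown to let them be set beside the values of their genes; each is read 5′ to 3′ on the gene's strand, with the X-box in capitals. The 3 matches upstream of the window's start site, with up to 40 bases on either side, lie within chr5:124598647-124598740 (plus strand), chr6:30693826-30693920 (minus strand) and chr19:40612319-40612411 (minus strand).
Tctn2: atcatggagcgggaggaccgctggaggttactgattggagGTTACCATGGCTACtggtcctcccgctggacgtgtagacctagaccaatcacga
Cep41: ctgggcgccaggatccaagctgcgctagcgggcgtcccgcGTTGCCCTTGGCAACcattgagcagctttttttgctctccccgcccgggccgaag
Tctn3: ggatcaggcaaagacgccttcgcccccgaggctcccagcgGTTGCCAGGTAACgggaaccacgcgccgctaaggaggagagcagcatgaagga
The 3 matches just downstream of that start site lie within chr5:122264411-122264432 (minus strand), chr7:25680788-25680817 (plus strand) and chr10:20952560-20952589 (plus strand).
Tctn1: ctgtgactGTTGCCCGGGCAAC
B9d2: aacctgctGTTGCCCCAGCAACagtcgggg
Ahi1: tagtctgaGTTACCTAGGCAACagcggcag
For Cep41, Ahi1, Tctn3 and Tctn1 that start site lies inside the annotated span of the gene and not at its end, and for Cep41 it is far inside. Counted from the start site of the window, the X-box ran from base -62 to -49 in Tctn2, from -131 to -117 in Cep41 and from -140 to -128 in Tctn3. It ran from base 37 to 50 in Tctn1, from 17 to 30 in B9d2 and from 22 to 35 in Ahi1. All 3 tectonic genes were among the 6. The matches are letters in a window and were not shown here to be bound.

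Loss of Actr3 was the first comparison, KO-1 against control. Genes of the 33 moved in both directions and by modest amounts: the centriole cap gene Cep97, the satellite gene Cep131 and the MKS genes Mks1 and Tctn1 were higher in KO-1, while the distal appendage gene Cep83, the docking factor gene Cby1 and the MKS gene B9d1 were lower. Of the 33, 14 rose, 9 fell and 10 did not pass the test (limma on log2(value + 1), Benjamini-Hochberg adjusted p under 0.05 over 13939 genes). Over all tested genes 69.8% were called, 34.4% higher and 35.4% lower, so the members' share was near the background. A change of at least 1.5-fold was called for 2 higher and 2 lower members, against 30.4% of all tested genes in either direction. The members' median log2 fold change was -0.02, and that of all tested genes was 0.0047. Without the control library used with no replicate number, 11 rose and 9 fell.

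Among distal appendage genes, Cep83, whose protein anchors the others to the mother centriole, had 742, 745 and 653 normalized counts in KO-1, against 1330.2, 1443 and 1315 in control. All 3 KO-1 libraries were far below all 3 control libraries, and the log2 fold change was -0.93 ± 0.08 (SE, adjusted p = 1.14e-09). Of the other members of that structure, Cep164, Cep89 and Fbf1 rose, with log2 fold changes of 0.41, 0.28 and 0.25, and Sclt1 did not pass the test (0.12). Cby1, which encodes Chibby, a protein of the basal body that helps membrane vesicles dock, had 447, 450.5 and 415 normalized counts in KO-1, against 739, 621 and 760.5 in control. Every KO-1 library was below every control library, with a log2 fold change of -0.69 ± 0.08 (SE, adjusted p = 1.36e-07). Cep97, which acts with CP110 to cap the distal end of centrioles and restrain cilium growth, had 1124, 1043 and 1182 normalized counts in KO-1, against 663, 657 and 673 in control. The groups did not overlap, and the log2 fold change was 0.75 ± 0.07 (SE, adjusted p = 6.3e-09).

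Within the MKS and tectonic module, 5 of 13 genes rose, 5 fell and 3 did not pass the test, with a median log2 fold change of -0.13. Mks1, a B9-domain protein gene mutated in Meckel syndrome, had 325, 300.3 and 319 normalized counts in KO-1, against 203, 163 and 219 in control. It was higher in every KO-1 library, with a log2 fold change of 0.70 ± 0.12 (SE, adjusted p = 2.55e-05). Tctn1, a tectonic, had 1242, 1047 and 1166 normalized counts in KO-1, against 754, 851 and 775 in control. It was also higher in every KO-1 library (log2 fold change 0.54 ± 0.07 SE, adjusted p = 4.86e-07); its annotated span overlaps that of Hvcn1, which averaged 925 normalized counts in KO-1 and 696 in control, and the strand setting of the counting was not stated. B9d1, a partner of MKS1 in the same complex, went the other way, with 391, 429.8 and 417 normalized counts in KO-1, against 585, 582 and 627 in control. The groups did not overlap and the log2 fold change was -0.53 ± 0.08 (SE, adjusted p = 5.04e-06). Both satellite genes rose: Cep131 had 1806, 1789 and 1861 normalized counts in KO-1, against 1348, 1145 and 1194 in control. Its log2 fold change was 0.57 ± 0.07 (SE, adjusted p = 1.44e-07), and that of Pcm1 was 0.29.

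Members on chromosomes 5 and 6 stood on the most shifted backgrounds in this comparison. The median log2 fold change of all tested genes was -0.24 on chromosome 5, which holds Cc2d2a, Tctn1 and Tctn2, and -0.42 on chromosome 6, which holds Cep41. After the median of each gene's chromosome was removed, the call of Tctn2 was lost, with -0.29 before and -0.05 (adjusted p = 0.475) after. Cep41, whose protein takes part in tubulin glutamylation, was lower at -0.40 before and had 0.02 (adjusted p = 0.863) after. Calls of Rpgrip1l and Odf2 were lost as well, at 0.11 (adjusted p = 0.176) and 0.04 (adjusted p = 0.443). Tmem231, Sclt1 and Cep19, which had not passed the test, then did, at -0.19 (adjusted p = 0.0167), 0.18 (adjusted p = 0.0179) and -0.19 (adjusted p = 0.034). The log2 fold changes of Tctn1 and Cc2d2a, higher against a lower chromosome, became 0.78 and 0.52. That of Ofd1, on chromosome X (median -0.14), went from 0.15 to 0.29. The 16 proliferation genes summed to 108337 to 113109 in KO-1 and 122175 to 127577 in control. The 4 proximal tubule markers, nearly all of it Lrp2, summed to 14429 to 17165 in KO-1 and 10366 to 12593 in control, and the 16 collecting duct markers to 98739 to 106308 in KO-1 and 129732 to 138605 in control. Their part in the members' values was not tested.

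**Figure D2:**
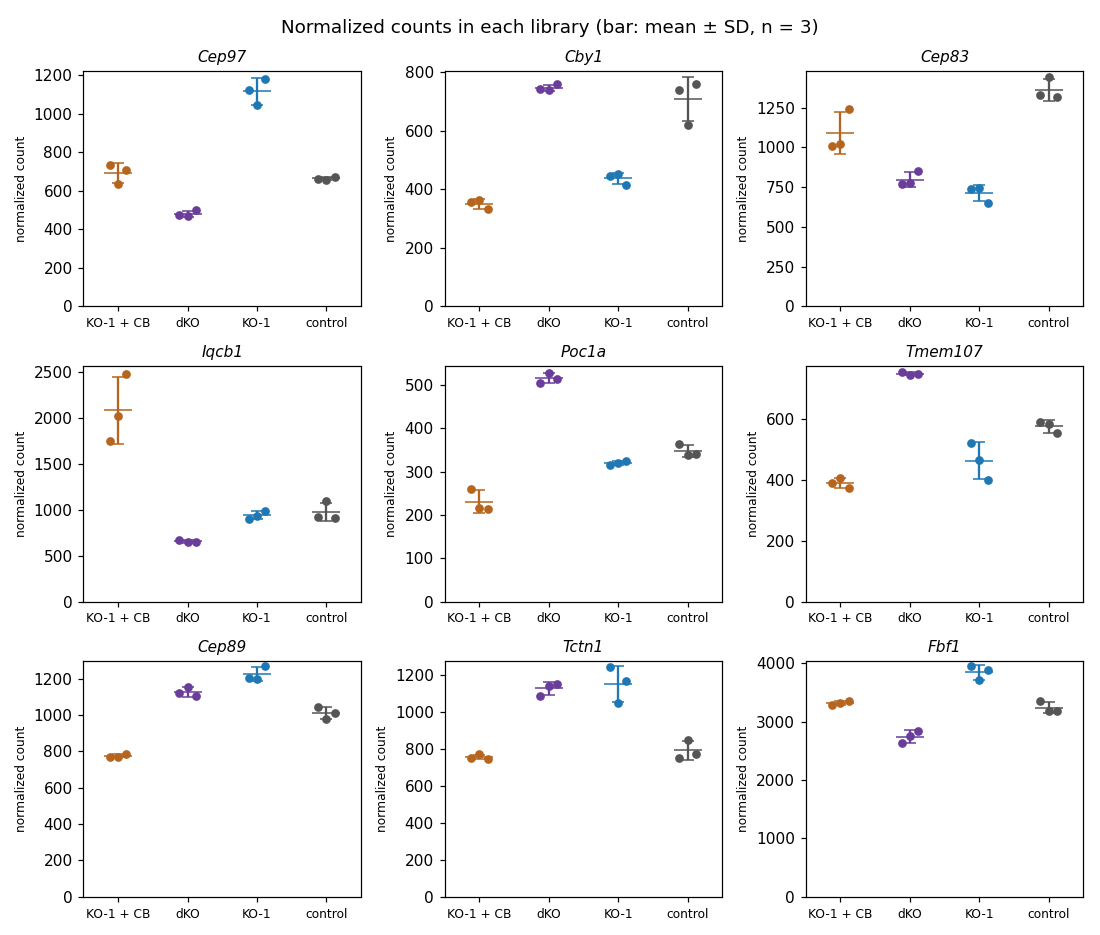
Normalized counts of 9 members in each library, with KO-1 CB, dKO, KO-1 and control from left to right; points are libraries and bars the mean ± SD of 3. Cep97 lies at 1043 to 1182 in KO-1 and at 469 to 735 in the other groups, and Iqcb1 lies at 1756 to 2478 in KO-1 CB and at 649 to 1092 in the other groups.

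The second comparison, dKO against KO-1, set the line labelled as also lacking Ift88 against the Actr3 knockout. Between them Ift88 did not pass the test (604 in dKO and 617 in KO-1, log2 fold change -0.03, adjusted p = 0.725), and Actr3 was lower in dKO (-0.48, adjusted p = 6.88e-06). Members moved in both directions: Cep97, the distal appendage genes Fbf1 and Sclt1 and the MKS gene Tmem67 were lower in dKO, while Cby1, the centriole genes Poc1a and Poc1b and the MKS genes Tmem107 and B9d2 were higher. Of the 33, 9 rose, 13 fell and 11 did not pass the test, with a median log2 fold change of -0.03, against -0.01 over all tested genes. Over all tested genes 65.7% were called, 32.5% higher and 33.2% lower, so the members' share was again near the background. A change of at least 1.5-fold was called for 5 higher and 2 lower members, and for 25.5% of all tested genes in either direction.

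Cep97 had 473, 469 and 498 normalized counts in dKO, against 1124, 1043 and 1182 in KO-1. It was lower in every dKO library by a wide margin, with a log2 fold change of -1.21 ± 0.07 (SE, adjusted p = 3.89e-12). Poc1a and Poc1b, paralogous WD-repeat proteins that keep centrioles stable, moved the other way. Poc1a had 506, 528 and 515 normalized counts in dKO, against 315, 321 and 326 in KO-1, with a log2 fold change of 0.69 ± 0.09 (SE, adjusted p = 5.34e-07). Poc1b had 1044, 1017 and 1116 normalized counts in dKO, against 657, 712 and 661 in KO-1. All dKO libraries were higher (log2 fold change 0.64 ± 0.07 SE, adjusted p = 7.59e-08); its annotated span overlaps that of Galnt4, which averaged 979 in dKO and 1146 in KO-1. Cby1 had 741, 737 and 758 normalized counts in dKO, against 447, 450.5 and 415 in KO-1. The groups did not overlap, and the log2 fold change was 0.77 ± 0.08 (SE, adjusted p = 2.84e-08). Its dKO values lay around the control values of 739, 621 and 760.5.

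Among distal appendage genes, 3 of 5 fell and none rose. Fbf1, whose protein fills the space between the appendage blades, had 2634, 2751 and 2848 normalized counts in dKO, against 3948, 3708 and 3888 in KO-1. The 3 dKO libraries were lower, with a log2 fold change of -0.49 ± 0.05 (SE, adjusted p = 1.94e-08). Sclt1, which acts downstream of Cep83 in appendage assembly, had 642, 559.6 and 606 normalized counts in dKO, against 897, 907 and 861 in KO-1. Its log2 fold change of -0.56 ± 0.06 (SE, adjusted p = 1.24e-07) stood on chromosome 3, where the median of all tested genes was -0.39. Cep164, which recruits the kinase TTBK2 to the mother centriole, fell as well, with a log2 fold change of -0.39. In the MKS and tectonic module 5 of 13 rose, 3 fell and 5 did not pass the test. Tmem67, which encodes the membrane protein meckelin, had 357, 343 and 363 normalized counts in dKO, against 562, 541 and 629.9 in KO-1. It was lower in every dKO library, with a log2 fold change of -0.70 ± 0.08 (SE, adjusted p = 9.87e-08); its span overlaps that of Rbm12b2, which averaged 292 in dKO and 412 in KO-1. Tmem107, another membrane protein of the module, had 754, 745 and 745 normalized counts in dKO, against 519, 466 and 398 in KO-1. All 3 dKO libraries were above all 3 KO-1 libraries (log2 fold change 0.70 ± 0.08 SE, adjusted p = 1.95e-07). B9d2 had 396, 456 and 437 normalized counts in dKO, against 270.1, 317 and 232 in KO-1. It too was higher without overlap, with a log2 fold change of 0.66 ± 0.11 (SE, adjusted p = 2.86e-05), and B9d1 and Tmem231 rose by 0.57 and 0.50 on the log2 scale.

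Chromosome backgrounds were wide in this comparison. Medians of all tested genes were 0.40 on chromosome 10 (Ahi1, Cep290, Cep83, Poc1b), 0.39 on chromosome 5 (Cc2d2a, Tctn1, Tctn2), -0.39 on chromosome 3 (Sclt1) and -0.41 on chromosome 16 (Iqcb1, Cep19, Cep97). With chromosome medians removed, Cep97 kept its call at -0.81 (adjusted p = 2.45e-09), Poc1b at 0.25 (adjusted p = 0.00554) and Sclt1 at -0.17 (adjusted p = 0.0262), each less than its value before. The calls of Ahi1, Iqcb1 and Cep120 were lost, at 0.08 (adjusted p = 0.475), -0.10 (adjusted p = 0.334) and -0.07 (adjusted p = 0.309). Members that had not passed the test then did: Tctn1 and Tctn2 had -0.42 (adjusted p = 1.75e-05) and -0.42 (adjusted p = 1.37e-06), against -0.03 and -0.03 before, and Cep83, Cep290 and Cep19 had -0.24 (adjusted p = 0.0135), -0.29 (adjusted p = 0.00411) and 0.38 (adjusted p = 0.000181). Calls of Cby1, Poc1a, Tmem107, B9d2, Tmem67 and Fbf1, on other chromosomes, were kept.

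**Figure D3:**
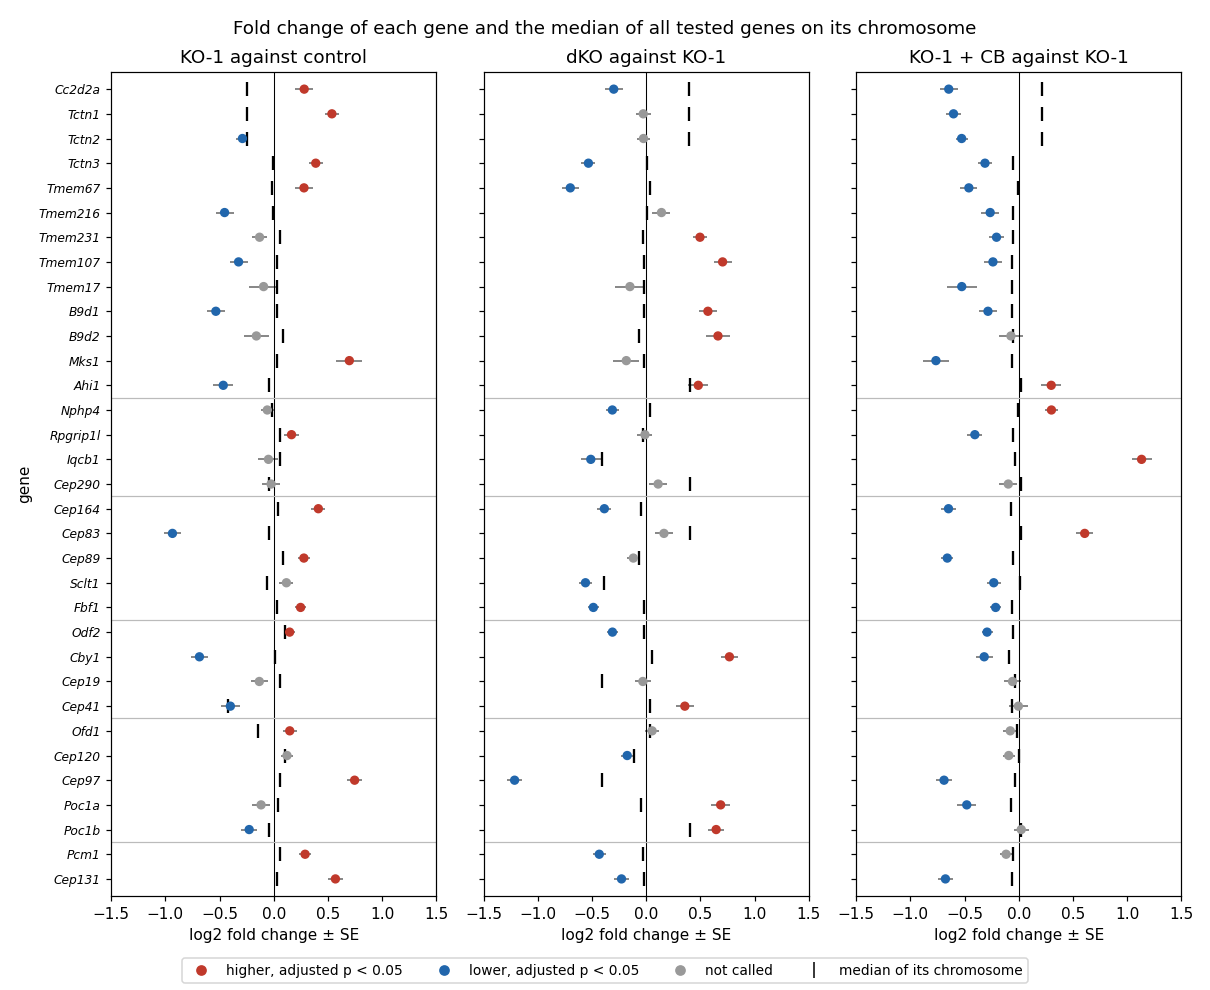
Log2 fold change ± SE of each of the 33 genes in 3 comparisons, by role from top to bottom; red and blue points passed the test, and black ticks give the median of all tested genes on the gene's chromosome. In the right panel most points lie left of 0, with Iqcb1 at 1.13 far to the right, and in the middle panel the ticks lie up to 0.41 from 0.

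The 4 proximal tubule markers summed to 5378 to 6634 in dKO and 14429 to 17165 in KO-1, nearly all of it Lrp2, with Slc34a1 at 0 in both. The 16 proliferation genes summed to 116009 to 117737 in dKO and 108337 to 113109 in KO-1. Their part in the members' values was not tested.

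The third comparison, KO-1 CB against KO-1, addressed ciliobrevin D within the Actr3 knockout line. Here the 33 moved mainly one way: genes of the MKS and tectonic module, distal appendage genes, Cep97 and Cep131 were lower with ciliobrevin D, while Iqcb1, Cep83, Nphp4 and Ahi1 were higher. Of the 33, 21 fell, 4 rose and 8 did not pass the test. Over all tested genes 65.5% were called, 32.9% lower and 32.7% higher. The median log2 fold change of the 33 was -0.26, against -0.02 over all tested genes. A change of at least 1.5-fold was called for 7 lower and 2 higher members, against 11.3% of tested genes lower and 13.1% higher. The lower counts held at 19 to 22 across all alternatives, and the higher counts at 3 or 4.

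In the MKS and tectonic module 11 of 13 genes fell, 1 rose and 1 did not pass the test, with a median log2 fold change of -0.31. Mks1 had 199.8, 170.4 and 185 normalized counts in KO-1 CB, against 325, 300.3 and 319 in KO-1, with a log2 fold change of -0.76 ± 0.12 (SE, adjusted p = 9.78e-06). Cc2d2a, a scaffold protein of the module, had 566, 499 and 434 normalized counts in KO-1 CB, against 785, 781 and 767 in KO-1. Every library with ciliobrevin D was lower, at a log2 fold change of -0.65 ± 0.08 (SE, adjusted p = 8.14e-07). Tctn1 had 753, 770.3 and 747 normalized counts in KO-1 CB, against 1242, 1047 and 1166 in KO-1. Its log2 fold change was -0.60 ± 0.07 (SE, adjusted p = 1.15e-07), and its KO-1 CB values lay near the control values of 754, 851 and 775. The overlapping gene Hvcn1 averaged 730.2 in KO-1 CB and 925 in KO-1. Tctn2 had 1422, 1441 and 1375 normalized counts in KO-1 CB, against 1952, 2019 and 2137 in KO-1. Those values were the lowest of any group (log2 fold change -0.53 ± 0.06 SE, adjusted p = 4.28e-08). The third tectonic gene, Tctn3, fell by 0.31 on the log2 scale. Ahi1 was the member of the module that rose (0.30), and B9d2 did not pass the test (-0.07). Calls of Tmem231 and Tmem107 were lost after chromosome medians were removed, at -0.15 (adjusted p = 0.0532) and -0.17 (adjusted p = 0.0751). Counting that setting, they were lost in 2 and 5 of 23 alternatives, and the libraries of KO-1 CB and KO-1 overlapped for Tmem107. Falls on chromosome 5 (median 0.22) grew once its median was removed, to -0.86 for Cc2d2a, -0.82 for Tctn1 and -0.74 for Tctn2.

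All 5 distal appendage genes were called, 4 lower and 1 higher. Cep89 had 771, 772 and 785 normalized counts in KO-1 CB, against 1205, 1201 and 1272 in KO-1. The groups were far apart, with a log2 fold change of -0.66 ± 0.06 (SE, adjusted p = 1.79e-09). Cep164 had 988, 937 and 913 normalized counts in KO-1 CB, against 1452, 1465 and 1529 in KO-1, with a log2 fold change of -0.65 ± 0.07 (SE, adjusted p = 2.01e-08). Cep83 went the other way, with 1009.6, 1019.7 and 1244 normalized counts in KO-1 CB, against 742, 745 and 653 in KO-1. It was higher in every library with ciliobrevin D (log2 fold change 0.61 ± 0.08 SE, adjusted p = 8.17e-07) and remained below the control values of 1330.2, 1443 and 1315. Sclt1 and Fbf1 fell by 0.23 and 0.21 on the log2 scale. Cep97 had 735, 633 and 709.7 normalized counts in KO-1 CB, against 1124, 1043 and 1182 in KO-1, so that its KO-1 CB libraries lay around the control values of 663, 657 and 673; the log2 fold change was -0.69 ± 0.07 (SE, adjusted p = 2.59e-08). The satellite gene Cep131 had 1214, 1170.3 and 1037 normalized counts in KO-1 CB, against 1806, 1789 and 1861 in KO-1. Its log2 fold change was -0.68 ± 0.07 (SE, adjusted p = 1.39e-08), and Pcm1, the satellite scaffold, did not pass the test (-0.12).

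Iqcb1, which encodes nephrocystin-5, a partner of CEP290 mutated in nephronophthisis with retinal disease, had the largest log2 fold change of the 33 in this comparison. It had 1756, 2019.6 and 2478 normalized counts in KO-1 CB, against 902, 932 and 989 in KO-1. All 3 treated libraries were well above all 9 others, although they spread widely, and the log2 fold change was 1.13 ± 0.09 (SE, adjusted p = 8.08e-10). Its annotated span shares 44360 bases with that of Eaf2, and Eaf2 averaged 64.6 normalized counts in KO-1 CB and 32.0 in KO-1. Its partner in the gate, Cep290, did not pass the test (-0.10). Nphp4, which encodes nephrocystin-4, rose by 0.30 on the log2 scale, and Rpgrip1l, another anchor of the Y-links, fell by 0.40. In the set of 6 genes with an X-box shown above, 3 fell (the 3 tectonic genes), 1 rose (Ahi1) and 2 did not pass the test (B9d2 and Cep41). Among the 24 genes with a promoter window and no X-box, 17 fell, 3 rose and 4 did not pass the test.

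Summed markers of several other cell types differed between KO-1 CB and KO-1 with no overlap. The 4 proximal tubule markers summed to 11911 to 12446 in KO-1 CB and 14429 to 17165 in KO-1, and the 3 podocyte markers, nearly all of it Podxl, to 2458 to 2813 in KO-1 CB and 3681 to 4201 in KO-1. The 8 markers of multiciliated cells summed to 621 to 923 in KO-1 CB and 2143 to 2235 in KO-1. Nearly all of the sum was Foxj1, a cilia transcription factor, which averaged 678 in KO-1 CB and 2167 in KO-1; Gmnc was at 0 and Mcidas near 0 in both. The 6 leukocyte markers summed to 314 to 364 in KO-1 CB and 158 to 169 in KO-1, mostly from Cd68, with Cd3e at 0 in both. The 16 proliferation genes summed to 117912 to 122691 in KO-1 CB and 108337 to 113109 in KO-1. Their part in the members' values was not tested.

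The fourth comparison set dKO against control. Cep83, Cep97, Sclt1 and Iqcb1 were lower in dKO, and Tctn1 and Poc1a were higher. Of the 33, 10 rose, 12 fell and 11 did not pass the test, against 67.1% of all tested genes called, and 1 member, Cep83, was called with at least 1.5-fold, against 27% of tested genes. That number was 4 without the control library used with no replicate number, 3 without control replicate 1 and 2 without dKO replicate 2. Cep83 had 769, 776 and 849.8 normalized counts in dKO, against 1330.2, 1443 and 1315 in control. Its log2 fold change was -0.77 ± 0.08 (SE, adjusted p = 2.41e-08), and -1.17 after the chromosome median of 0.40 was removed. Tctn1 had 1089, 1140.4 and 1153 normalized counts in dKO, against 754, 851 and 775 in control, with a log2 fold change of 0.51 ± 0.07 (SE, adjusted p = 1.14e-06), while Hvcn1 averaged 1019 in dKO and 696 in control. Poc1a had 506, 528 and 515 normalized counts in dKO, against 363, 339 and 341 in control, and every dKO library was higher (log2 fold change 0.57 ± 0.09 SE, adjusted p = 6.68e-06).

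The 3 lower genes Cep97, Sclt1 and Iqcb1 lay on chromosomes whose genes were lower as a whole, with medians of -0.39 on chromosome 16 and -0.44 on chromosome 3. Cep97 had 473, 469 and 498 normalized counts in dKO, against 663, 657 and 673 in control, a log2 fold change of -0.47 ± 0.07 (SE, adjusted p = 5.47e-06), which became -0.08 (adjusted p = 0.305) with chromosome medians removed. Sclt1 had 642, 559.6 and 606 normalized counts in dKO, against 823, 835 and 799.6 in control, a log2 fold change of -0.44 ± 0.06 (SE, adjusted p = 3.28e-06), and its value after removal was 0.000372 (adjusted p = 0.997). Iqcb1 had 677, 653 and 649 normalized counts in dKO, against 920.0, 1092 and 916 in control, a log2 fold change of -0.56 ± 0.09 (SE, adjusted p = 1.65e-05), which became -0.18 (adjusted p = 0.101). Each of these calls was thus lost once the level of the chromosome was taken away. Calls of Poc1b, Tctn3 and Cep89 were also lost with chromosome medians removed, at 0.02 (adjusted p = 0.803), -0.13 (adjusted p = 0.0866) and 0.11 (adjusted p = 0.0842). Poc1b lies on chromosome 10, with a median of 0.40. Tctn3 and Cep89 lie on chromosomes 19 and 7, whose medians were only -0.02 and 0.05. Their calls were lost in 13 and 4 of 23 alternatives. Genes that had not passed the test moved past it: Ahi1 and Cep290, on chromosome 10, had -0.38 (adjusted p = 0.00145) and -0.31 (adjusted p = 0.00239), and Cep19, on chromosome 16, and Cep41, on chromosome 6 (median -0.39), had 0.22 (adjusted p = 0.0148) and 0.34 (adjusted p = 0.00116). The 4 proximal tubule markers summed to 5378 to 6634 in dKO and 10366 to 12593 in control, and the 16 collecting duct markers to 92229 to 100114 in dKO and 129732 to 138605 in control; their part in the members' values was not tested. Of the 33 genes, 12 lie on chromosomes 3, 5, 6, 10 and 16.

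**Figure D4:**
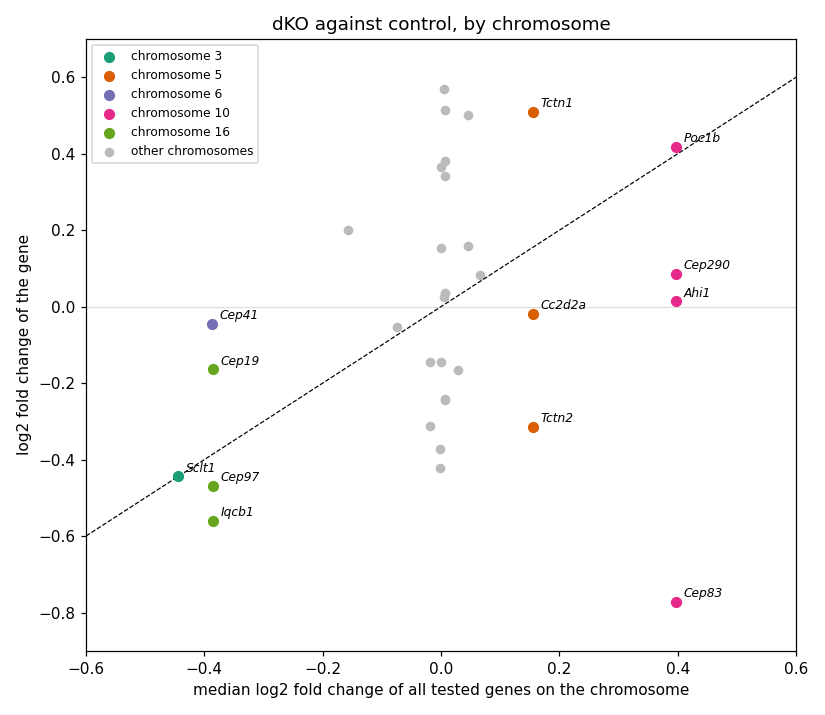
Log2 fold change of each of the 33 genes in dKO against control (vertical axis) against the median of all tested genes on its chromosome (horizontal axis), with the dashed line where they are equal. Sclt1, Poc1b, Cep97 and Iqcb1 lie near the line, while Cep83, at -0.77 on a chromosome with a median of 0.40, lies far below it.

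Last, KO-1 CB was set against dKO, 2 groups that carry the Actr3 knockout and differ in both line and treatment. The MKS genes Tmem107, B9d1, B9d2 and Tmem231, the centriole genes Poc1a and Poc1b and Cby1 were lower in KO-1 CB, and the NPHP genes Iqcb1 and Nphp4 were higher. Of the 33, 19 fell, 9 rose and 5 did not pass the test, with a median log2 fold change of -0.35, against -0.0049 over all tested genes. Over all tested genes 73.4% were called, 36.3% lower and 37% higher. A change of at least 1.5-fold was called for 7 lower and 2 higher members, against 34.2% of tested genes, 14.4% lower and 19.9% higher. This comparison shares its KO-1 CB samples with the third and its dKO samples with the second, so their values are not independent. The 8 multiciliated cell markers, nearly all of it Foxj1, summed to 621 to 923 in KO-1 CB and 2289 to 2434 in dKO, and the 4 proximal tubule markers to 11911 to 12446 in KO-1 CB and 5378 to 6634 in dKO; their part in the members' values was not tested.

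Iqcb1 had 1756, 2019.6 and 2478 normalized counts in KO-1 CB, against 677, 653 and 649 in dKO. The log2 fold change of 1.64 ± 0.09 (SE, adjusted p = 1.13e-12) was 1.22 after chromosome medians were removed. Nphp4 had 1101, 1085 and 1079.5 normalized counts in KO-1 CB, against 687, 758 and 689 in dKO. It was higher in every KO-1 CB library (log2 fold change 0.61 ± 0.06 SE, adjusted p = 1.53e-08); its span overlaps the end of Kcnab2, which averaged 373 in KO-1 CB and 247 in dKO. Poc1a had 261, 217 and 213 normalized counts in KO-1 CB, against 506, 528 and 515 in dKO. The KO-1 CB values were less than those of all 9 other libraries, and the log2 fold change was -1.17 ± 0.09 (SE, adjusted p = 1.2e-10). Poc1b had 679.9, 762 and 628 normalized counts in KO-1 CB, against 1044, 1017 and 1116 in dKO, a log2 fold change of -0.62 ± 0.07 (SE, adjusted p = 1.01e-07), which became -0.23 with chromosome medians removed, while the overlapping gene Galnt4 averaged 759.8 in KO-1 CB and 979 in dKO. Cby1 had 356, 364 and 332 normalized counts in KO-1 CB, against 741, 737 and 758 in dKO, again with no overlap (log2 fold change -1.09 ± 0.08 SE, adjusted p = 9.02e-11).

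Of the 13 MKS and tectonic genes 10 fell, 2 rose and 1 did not pass the test, with a median log2 fold change of -0.50. Tmem107 had 389, 405 and 373 normalized counts in KO-1 CB, against 754, 745 and 745 in dKO, and its log2 fold change was -0.94 ± 0.08 (SE, adjusted p = 1.75e-09). The B9-domain genes B9d1 and B9d2 both fell. B9d1 had 329, 379 and 312 normalized counts in KO-1 CB, against 593, 635 and 609 in dKO, with a log2 fold change of -0.85 ± 0.08 (SE, adjusted p = 5.03e-09). B9d2 had 269.6, 260.5 and 243 normalized counts in KO-1 CB, against 396, 456 and 437 in dKO, with a log2 fold change of -0.73 ± 0.11 (SE, adjusted p = 6.29e-06). Tmem231, a membrane protein gene of the same complex, had 752, 741 and 689 normalized counts in KO-1 CB, against 1146, 1175 and 1225 in dKO. The groups did not overlap (log2 fold change -0.70 ± 0.07 SE, adjusted p = 5.48e-09). The calls of Cc2d2a, Cep97 and Sclt1 were lost with chromosome medians removed, at -0.13 (adjusted p = 0.166), 0.10 (adjusted p = 0.2) and -0.07 (adjusted p = 0.358), while Ahi1 and Cep290 turned to 0.21 (adjusted p = 0.0462) and 0.19 (adjusted p = 0.0465) and Cep19 passed the test at -0.45 (adjusted p = 2.59e-05).

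The remaining 12 members are given by group, as mean normalized counts ± SD. In the gate, Tctn3 averaged 1465 ± 90.5 in KO-1 CB, 1255 ± 42.9 in dKO, 1819 ± 142 in KO-1 and 1389 ± 64.1 in control. It was highest in KO-1, which differed from control by 0.39 on the log2 scale. Ahi1 averaged 371 ± 51.8 in KO-1 CB, 418 ± 8.59 in dKO, 299 ± 4.18 in KO-1 and 414 ± 30.3 in control. It was lowest in KO-1, below control by 0.47 on the log2 scale. Rpgrip1l, an anchor of the gate, averaged 941 ± 43.2 in KO-1 CB, 1240.5 ± 132 in dKO, 1246 ± 48.0 in KO-1 and 1112 ± 4.17 in control. It fell in KO-1 CB against KO-1 (-0.40) and against dKO (-0.39). Cep290, a large protein that spans from microtubules to membrane in the gate, averaged 1375 ± 62.4 in KO-1 CB, 1594 ± 215 in dKO, 1473 ± 135 in KO-1 and 1495 ± 84.7 in control, and was called in KO-1 CB against dKO alone of the 5 comparisons, a call lost in 6 of 23 alternatives; its span overlaps that of 4930430F08Rik, which averaged 239 in KO-1 CB and 431 in dKO. Tmem216, a membrane protein gene of the MKS module, averaged 248 ± 9.71 in KO-1 CB, 328 ± 10.2 in dKO, 298 ± 20.2 in KO-1 and 408 ± 10.9 in control. It fell in KO-1 against control (-0.45), in dKO against control (-0.31), in KO-1 CB against dKO (-0.40) and in KO-1 CB against KO-1 (-0.26), the last without a call in 2 of 23 alternatives. Its span overlaps that of Cpsf7, which averaged 6597 over all libraries. Tmem17, another of these, averaged 100.4 ± 19.7 in KO-1 CB, 129 ± 7.21 in dKO, 143 ± 12.5 in KO-1 and 153 ± 8.97 in control. It had the widest spread within a group (coefficient of variation 19.6%) and fell in KO-1 CB against KO-1 (-0.53) and against dKO (-0.38). The call against dKO was lost in 4 of 23 alternatives.

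At the basal body and centriole, Odf2, the subdistal appendage protein also called cenexin, averaged 2819 ± 64.7 in KO-1 CB, 2779.8 ± 35.5 in dKO, 3452 ± 114 in KO-1 and 3119.8 ± 155 in control. It rose in KO-1 against control (0.15), a call lost in 5 of 23 alternatives, and fell in dKO against KO-1 (-0.31), in dKO against control (-0.17) and in KO-1 CB against KO-1 (-0.29). Cep19, which helps to start intraflagellar transport at the basal body, averaged 769 ± 77.5 in KO-1 CB, 781 ± 36.3 in dKO, 798 ± 33.3 in KO-1 and 877 ± 68.3 in control. It was not called in any of the 5 comparisons, with log2 fold changes of -0.16 to -0.03. With chromosome medians removed it passed the test in 4 of the 5, lower in KO-1 against control (-0.19) and in KO-1 CB against dKO (-0.45) and higher in dKO against KO-1 (0.38) and against control (0.22). Cep41 averaged 337 ± 25.3 in KO-1 CB, 433 ± 27.4 in dKO, 337 ± 2.29 in KO-1 and 446 ± 32.4 in control, with KO-1 CB and KO-1 overlapping, and was lower in KO-1 CB than in dKO (-0.36). Ofd1, whose protein sits at the distal end of centrioles and on satellites, averaged 892 ± 58.9 in KO-1 CB, 977 ± 24.9 in dKO, 941 ± 52.3 in KO-1 and 849 ± 24.6 in control. Its log2 fold change in KO-1 against control was 0.15 ± 0.06 (SE, adjusted p = 0.0472), a call that was lost in 12 of 23 alternatives (adjusted p 0.000446 to 0.203). It rose in dKO against control (0.20). Cep120, which promotes centriole elongation, averaged 1979 ± 130.5 in KO-1 CB, 1865 ± 46.1 in dKO, 2107 ± 68.8 in KO-1 and 1935 ± 43.2 in control and had the smallest ratio of highest to lowest group mean of the 33, at 1.13. It fell in dKO against KO-1 (-0.18). Pcm1 averaged 6147 ± 251 in KO-1 CB, 4938 ± 311 in dKO, 6668 ± 429.6 in KO-1 and 5451 ± 169 in control, and was higher in KO-1 than in dKO or control.

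Further genes of the same structures were counted from lists chosen by name. Over all tested genes, 65.5% were called in KO-1 CB against KO-1, 65.7% in dKO against KO-1 and 69.8% in KO-1 against control. In that order, 32.7%, 32.5% and 34.4% were higher and 32.9%, 33.2% and 35.4% lower. Called shares were 76.2%, 85.7% and 76.2% in the appendage and cap list. They were 60%, 60% and 66.7% in the transition zone list and 52.6%, 47.4% and 63.2% in the satellite list. The other lists lay above the background in some comparisons and below in others. Of 21 other appendage and centriole cap genes, 2 rose, 14 fell and 5 did not pass the test in KO-1 CB against KO-1 (median log2 fold change -0.31). In dKO against KO-1, 2 rose, 16 fell and 3 did not pass the test (median -0.30), and in KO-1 against control, 15 rose, 1 fell and 5 did not pass the test (median 0.36). Crocc, which encodes rootletin of the ciliary rootlet, averaged 1604 ± 62.7 normalized counts in KO-1 and 824 ± 74.0 in control (SD), a log2 fold change of 0.96 ± 0.07 (SE, adjusted p = 5.94e-11). Nin, which encodes the subdistal appendage protein ninein, averaged 2290.1 ± 197 normalized counts in dKO and 3771 ± 305 in KO-1 (SD), a log2 fold change of -0.72 ± 0.07 (SE, adjusted p = 6.91e-09). Tchp, which encodes trichoplein, a keratin-binding brake on cilium assembly, averaged 1033 ± 57.5 normalized counts in KO-1 CB and 1648 ± 112 in KO-1 (SD), a log2 fold change of -0.67 ± 0.07 (SE, adjusted p = 1.2e-08). Of 30 other transition zone and ciliopathy genes, 3 rose, 15 fell and 12 did not pass the test in KO-1 CB against KO-1 (median -0.19). In dKO against KO-1, 8 rose, 10 fell and 12 did not pass the test (median 0.01), and in KO-1 against control, 14 rose, 6 fell and 10 did not pass the test (median 0.13).

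Dzip1l, a transition zone gene mutated in recessive polycystic kidney disease, averaged 1381 ± 70.1 normalized counts in KO-1 CB and 2288 ± 92.0 in KO-1 (SD), and its log2 fold change was -0.73 ± 0.06 (SE, adjusted p = 2.64e-10). Inpp5e, a phosphoinositide phosphatase of the ciliary membrane, averaged 1103 ± 88.3 normalized counts in KO-1 CB and 1698 ± 57.2 in KO-1 (SD), a log2 fold change of -0.62 ± 0.06 (SE, adjusted p = 1.3e-08). Togaram1, which encodes a microtubule-binding protein of the cilium, rose in the same comparison, with 2891 ± 252 normalized counts in KO-1 CB and 1911 ± 169 in KO-1 (SD), a log2 fold change of 0.60 ± 0.07 (SE, adjusted p = 1.26e-07). By log2 fold change, the other called genes of this list with the smallest adjusted p were Arl13b (-0.88) and Dzip1l (-0.60) in dKO against KO-1 and Arl3 (-0.83) and Inpp5e (0.81) in KO-1 against control. Those of the appendage and cap list were Lrrc45 (-0.69) and Cep170 (0.60) in KO-1 CB against KO-1, Ninl (-0.61) and Cep170 (-0.63) in dKO against KO-1, and Dzip1 (1.30) and Cep128 (0.83) in KO-1 against control.

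Of 24 other centriole and pericentriolar genes, 4 rose, 11 fell and 9 did not pass the test in KO-1 CB against KO-1 (median log2 fold change -0.11), 6 rose, 14 fell and 4 did not pass the test in dKO against KO-1 (median -0.19) and 16 rose, 4 fell and 4 did not pass the test in KO-1 against control (median 0.30). Plk4, the kinase that starts centriole duplication, averaged 5122 ± 550.4 normalized counts in KO-1 CB and 3126 ± 81.4 in KO-1 (SD), a log2 fold change of 0.71 ± 0.07 (SE, adjusted p = 1.56e-08). Stil, its substrate in the same step, averaged 3860.2 ± 265 normalized counts in KO-1 CB and 2524 ± 194 in KO-1 (SD), a log2 fold change of 0.61 ± 0.06 (SE, adjusted p = 2.03e-08). The third, Wdr90 (-0.48), fell. In dKO against KO-1 the genes with the smallest adjusted p were Spice1 (-0.81), Cetn3 (0.65) and Cep295 (-0.51), and in KO-1 against control Cetn2 (-1.02), Rttn (0.70) and Tubg1 (-0.69). Of 19 other satellite genes, 5 rose, 5 fell and 9 did not pass the test in KO-1 CB against KO-1, 4 rose, 5 fell and 10 did not pass the test in dKO against KO-1 and 8 rose, 4 fell and 7 did not pass the test in KO-1 against control. Ccdc13 averaged 51.9 ± 11.4 normalized counts in KO-1 CB and 0.664 ± 0.577 in KO-1 (SD), while Tex9 (-0.74) fell and Mib1 (0.56) rose. In dKO against KO-1 the satellite genes with the smallest adjusted p were Cep350 (-0.93), Ccdc14 (-0.82) and Cep43 (-0.38), and in KO-1 against control Ccdc14 (0.84), Ssx2ip (-0.66) and Hook3 (0.59). Of 37 intraflagellar transport and BBSome genes, 1 rose, 25 fell and 11 did not pass the test in KO-1 CB against KO-1, with a median of -0.26 beside -0.26 for the 33. In dKO against KO-1 14 rose, 8 fell and 15 did not pass the test (median -0.02), and in KO-1 against control 17 rose, 10 fell and 10 did not pass the test (median 0.10). Those with the smallest adjusted p were Ift140 (-0.63), Bbs1 (-0.67) and Ift46 (-0.65) in KO-1 CB against KO-1, Ift22 (0.94), Bbs1 (-0.52) and Ift81 (0.48) in dKO against KO-1, and Ift140 (0.77), Ttc26 (-0.76) and Bbs7 (0.97) in KO-1 against control. Of the 16 proliferation genes, 6 rose, 4 fell and 6 did not pass the test in KO-1 CB against KO-1, 12 rose, 1 fell and 3 did not pass the test in dKO against KO-1 and 1 rose, 12 fell and 3 did not pass the test in KO-1 against control. Those with the smallest adjusted p were Pcna (0.66), Tyms (0.47) and Rrm2 (0.38) in KO-1 CB against KO-1, Cdk1 (0.95), Tyms (0.64) and Ccnb2 (0.56) in dKO against KO-1, and Rrm2 (-0.93), Tyms (-0.64) and Pcna (-0.67) in KO-1 against control. Chromosome medians were not removed from values of these lists. In dKO against KO-1 the median of tested genes was 0.39 on chromosome 5 (Ift22, Ift81, Tyms) and 0.40 on chromosome 10 (Cdk1). It was -0.41 on chromosome 16 (Arl13b, Spice1, Ccdc14) and -0.21 on chromosome 1 (Cep170, Cep350). In KO-1 against control it was -0.42 on chromosome 6 (Ttc26) and -0.24 on chromosome 5 (Tyms). In KO-1 CB against KO-1 it was 0.22 on chromosome 5 (Tchp, Tyms).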

How the data were processed

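Polyadenylated RNA of 12 libraries was sequenced. Per the submitters' processing notes, the tools were DESeq2 2.11.40.7, featureCounts 2.0.1, HISAT2 2.2.1 and fastp 0.23.2, and the builds named were GRCm38 and mm10. Their order, options and strand setting were not given in the sources used here. The deposited values are a signal, read counts scaled by 1 size factor per library, and division gave back whole reads (100% of values within 0.01 reads of a whole number). They are called normalized counts here and are not corrected for gene length. Libraries held 28902562 to 38077987 recovered reads. Entrez IDs were named from RefSeq (25275) and GENCODE (18), and 1886 had no name.

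Genes with at least 10 in at least 3 libraries (13939) were fitted as log2(value + 1) with limma 3.58.1 under R 4.3.3 (two-sided, with a trend, all 12 libraries together), with a call where the p adjusted by Benjamini-Hochberg over all tested genes was under 0.05; a stricter rule also asked for 1.5-fold. Fold changes on this scale understate changes of low genes. The comparisons numbered 5. Members, lists, comparisons and alternatives were chosen with earlier results of these data known. Values per library were given for up to 6 called members per comparison with the smallest adjusted p and for called members of at least 1.5-fold; members whose call was lost once chromosome medians were removed were named with that value, and related lists were named by up to 3 called genes with the smallest adjusted p in the 3 comparisons for which they are counted. Some genes that this rule names are not reported here.

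The alternatives changed the pseudocount (0.5 or 5), the filter (none, or a mean over libraries of 50), the scaling (TMM or quantile normalization), the test (DESeq2 1.42.0 or edgeR 4.0.16 on whole reads), the samples (the 2 groups compared, or 1 library less), added the replicate number as a block, or removed chromosome medians. edgeR on recovered reads called 4834 genes higher and 5022 lower in KO-1 against control. The fits were tested on simulated data. Differences between replicates exceeded sampling noise, with a chi-square of 4.40 to 16.5 per degree of freedom. Promoter windows and coordinates are from RefSeq GRCm38.p6, and exon lengths from GENCODE.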

Additional observations from a re-analysis of the deposited data

How the results depend on the processing

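Of the 120 calls of members over the 5 comparisons, 106 kept their direction and their call in all 22 alternatives other than the removal of chromosome medians, and 14 did not. With chromosome medians removed, 19 of the 120 lost their call or direction. Among values that passed the test with or without that setting, direction turned there for Ahi1 (-0.38 in dKO against control, 0.21 in KO-1 CB against dKO), Cep290 (-0.29 in dKO against KO-1, -0.31 in dKO against control, 0.19 in KO-1 CB against dKO), Cep83 (-0.24 in dKO against KO-1), Sclt1 (0.000372 in dKO against control, -0.068 in KO-1 CB against dKO), Cep19 (0.38 in dKO against KO-1, 0.22 in dKO against control) and Cep41 (0.018 in KO-1 against control, 0.34 in dKO against control), by the construction of that setting; 5 values that passed the test in neither also changed sign. After quantile normalization it turned for Odf2 (-0.12 in KO-1 CB against dKO) and Pcm1 (0.014 in dKO against control); the cause was not tested. The number of members called with at least 1.5-fold in dKO against control was 1 as reported, 2 with TMM rescaling, 2 with edgeR and 1 to 4 when 1 library was left out (4 without the unnumbered control, 3 without control replicate 1, 2 without dKO replicate 2); the cause was not tested. The other counts of called members, and of all tested genes called, stayed within 1.5 times. Same-numbered libraries did not deviate together over all tested genes (15 pairs, correlations -0.0415 to 0.0668). Such correlations cannot show whether these libraries shared handling, because an effect on few genes would not be seen. With the replicate number as a block, which leaves out the control library with no number, 4 member calls were lost and 2 gained, and the 1.5-fold count in dKO against control was 3. Each group had 3 libraries, and the titles give 1 line per genotype.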
